A study of Homo sapiens with 20 samples.

Results

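The genotype comparison at the last time point of an actinomycin D (Act D) chase is described here: *ALKBH5* knockout (A5-KO) against wild-type (WT) pancreatic progenitors (PPs) after 3 h of Act D at 1 μg/ml. The question is which classes of genes carry the difference between the genotypes at that time and which do not. Each library lists 60623 genes. Tested were the 13444 whose CPM (counts scaled to a common library size) averaged 1 or more over the 4 libraries compared, which were replicates 1 and 2 of each genotype. The 181 genes with a mean of 1 to 1.1 CPM had a median log2 difference of -0.08 and the 239 just outside the limit, at 0.9 to 1 CPM, one of -0.07.

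All cells were of the MEL1 INSGFP/W line, human embryonic stem cells that carry a green fluorescent reporter at the insulin gene, and were differentiated to the PP stage, in which cells of the foregut endoderm have taken on a pancreatic fate but make no hormones yet. A5-KO cells came from an expanded colony of the same line, edited by CRISPR-Cpf1 with 2 guide RNAs on exon 1 of *ALKBH5*, so that clonal differences cannot be told apart from the knockout. The study names its knockout lines A5-KO and A5-KO2, and also uses A5-KO for knockout cells in general. The labels of the chase name only A5-KO and say no more on which line was used. PPs of each genotype were taken at 0, 1, 2 and 3 h of Act D, with 2 libraries for each genotype and time and 16 in all. The 0 h, 1 h and 2 h libraries are used below only to place the 3 h difference.

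ALKBH5 is an enzyme that removes *N*6-methyladenosine (m6A), a methyl mark on adenosines of mRNA. Writer complexes around METTL3 and METTL14 add the mark, and reader proteins such as YTHDF2 bind it and can bring the decay machinery to the transcript. Act D stops transcription, so during a chase an mRNA with a short life loses its share of the RNA pool while one with a long life gains share. CPM is a share of the reads of a library, so each value below is a level relative to the total and not an amount per cell. In bulk libraries, fewer cells of a type and less RNA per cell cannot be told apart.

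The 16 libraries held between 30516384 and 35206514 reads and the 4 at 3 h between 31628257 and 35206514. The median absolute log2 difference between replicates at 3 h was 0.14 in WT and 0.08 in A5-KO, over genes of at least 10 CPM, and at 2 h it was 0.20 in WT. The WT libraries at 3 h stood apart from the order of the chase. Over the 13444 genes, WT replicate 1 at 3 h had its highest Pearson correlation with a WT library at 1 h (r = 0.992) and a lower one with the other WT library at 3 h (r = 0.988), and WT replicate 2 at 3 h also came closest to a WT library at 1 h (r = 0.990). Each A5-KO library at 3 h was closest to the other (r = 0.994). These correlations run across genes, which are not independent replicates, and what set the WT libraries apart was not tested.

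The targeted gene separated the genotypes as labelled. *ALKBH5* (ENSG00000091542, chromosome 17, 18183078 to 18209954, plus strand, GRCh38) was at 48.3 and 33.7 CPM in WT and 8.98 and 7.43 CPM in A5-KO at 3 h, a log2 difference of -2.17 (standard error 0.18, limma adjusted *p* = 0.000161). At 0 h it was at 149 and 172 CPM in WT and 19.1 and 18.8 CPM in A5-KO, so reads of the edited gene remained in the knockout at both times. All 9 PP markers checked, among them *PDX1*, *NKX6-1* and *SOX9*, were detected, with summed CPM of 1390 and 1095 in WT and 1155 and 1046 in A5-KO at 0 h. *POU5F1*, which marks pluripotent cells, and *INS*, which encodes insulin, were at 0 in the 4 libraries at 3 h. Of 4 pluripotency markers and 6 endocrine markers, 1 and 2 reached 1 CPM.

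At 3 h, 2234 of 13444 genes (16.6%) were called lower in A5-KO and 144 (1.07%) higher, where a call by limma on log2(CPM + 1) needed both an adjusted *p* below 0.05 and more than a 1.5-fold change. Untreated PPs showed 145 genes lower (1.08%) and 221 higher (1.64%) over the same genes. The counts were 155 lower (1.15%) and 444 higher (3.3%) at 1 h and 30 lower (0.223%) and 144 higher (1.07%) at 2 h. The WT replicates at 2 h differed more than those of any other group (median absolute log2 difference 0.20). The part of that spread in the 2 h counts was not tested. At 3 h the lower calls made up 93.9% of all calls. The genotypes did not overlap, with both A5-KO libraries below both WT libraries, for 6115 genes (45.5%), and with both above for 2756 (20.5%). The median log2 difference of all genes was 0.03 at 0 h and at 1 h, -0.10 at 2 h and -0.12 at 3 h. The lowest 5% of genes lay below -1.16 at 3 h and below -0.39 at 0 h, whereas the highest 5% lay above 0.39 and 0.44.

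The split of the calls depended on the scaling of the libraries. Median-of-ratios scaling moved the median difference at 3 h from -0.12 to 0.01 and gave 1658 lower and 352 higher genes (82.5% lower). Quantile normalization gave 1173 and 679 (63.3% lower), and edgeR on the reads recovered from the CPM gave 1786 and 356 (83.4% lower). All 1658 lower genes of the median-of-ratios fit and 1776 of the 1786 of edgeR were among the 2234. Lower genes outnumbered higher ones in each of these fits, but by different margins. Single libraries mattered as well: 1283 genes were lower without A5-KO replicate 2, and the higher genes numbered 67 and 95 without A5-KO replicate 1 or 2 and 327 and 261 without WT replicate 1 or 2. Each difference below can be read against the median of -0.12. With 2 libraries on each side an exact permutation test of a single gene cannot give a two-sided *p* below 0.33, so the calls rest on the spread that limma shares across genes.

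The class that carried the difference was set apart by how fast its mRNA share dropped in the first hour, a measure taken only from the libraries at 0 h and 1 h of both genotypes. For the 13280 tested genes that averaged 1 CPM or more at 0 h, the first-hour change was the mean log2(CPM + 1) at 1 h minus that at 0 h over both genotypes. Of the 302 genes with a first-hour change of at most -1.5, 261 (86.4%) were called lower in A5-KO at 3 h and none higher, and their median difference was -1.26. The share called lower was 80.4% (447 of 556, median -1.05) between -1.5 and -1, 53.9% (914 of 1696, median -0.65) between -1 and -0.5, and 19.2% (418 of 2179, median -0.32) between -0.5 and -0.25. It dropped to 3.99% (155 of 3881) between -0.25 and 0, below the 16.6% of all genes. Among the 3677 genes with a change between 0 and 0.25, 36 were lower and 62 higher, and among the 989 over 0.25, 3 were lower and 43 higher (4.35%), with a median of 0.20. The order of the classes was the same with quantile normalization, where 207 of the 302 fastest genes and 1 of the 989 over 0.25 were lower.

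**Figure D1:**
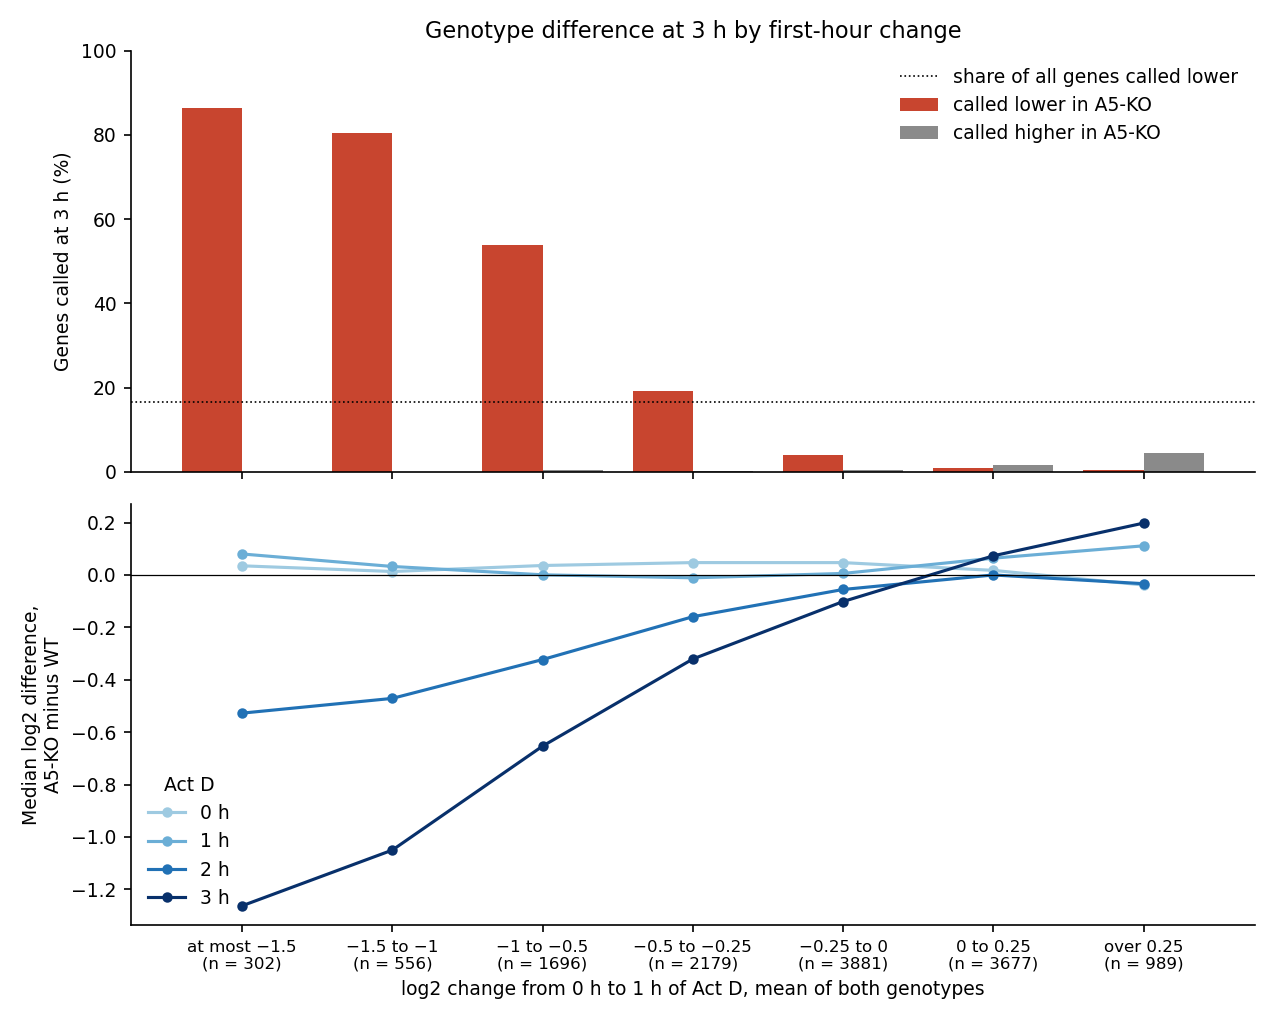
Upper panel, percent of genes called lower (red) or higher (grey) in A5-KO at 3 h in 7 classes of first-hour log2 change (x axis, fastest loss at the left), with the 16.6% of all genes as a dotted line. Lower panel, median log2 difference (A5-KO minus WT) of the same classes at 0, 1, 2 and 3 h; the lines at 0 h and 1 h stay near 0 in every class and the 3 h line runs from -1.26 to 0.20.

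Before the chase the medians of the same classes lay near 0. The median difference of the fastest 302 genes was 0.03 at 0 h and 0.08 at 1 h, -0.53 at 2 h and -1.26 at 3 h. Relative to the mean of their own genotype at 0 h, the median level of these genes on the log2 scale at 1 h was -1.92 and -1.80 in the WT libraries and -1.76 and -1.84 in the A5-KO libraries. At 2 h it was -2.33 and -1.62 in WT and -2.51 and -2.54 in A5-KO, so that WT replicate 1 lay close to the knockout and WT replicate 2 did not. At 3 h it was -1.51 and -1.22 in WT and -2.55 and -2.78 in A5-KO, with no overlap. The level in WT at 3 h was thus above that at 1 h, while that in A5-KO was below it.

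This held gene by gene. Of the 858 genes with a first-hour change of at most -1, 97.4% had a higher mean at 3 h than at 1 h in WT (median change 0.36) and 5.94% in A5-KO (median change -0.80). Over all 13444 genes the shares were 60.2% and 36.5%. Of the 2234 genes called lower at 3 h, 75.6% were higher at 3 h than at 1 h in WT and 0.403% in A5-KO, a description only, since these genes were chosen on the 3 h libraries. The genotype difference at 3 h therefore held both a further loss in A5-KO and a higher level in WT than earlier in the chase. Why CPM of short-lived mRNAs was higher at 3 h than at 1 h of Act D in WT was not tested.

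**Figure D2:**
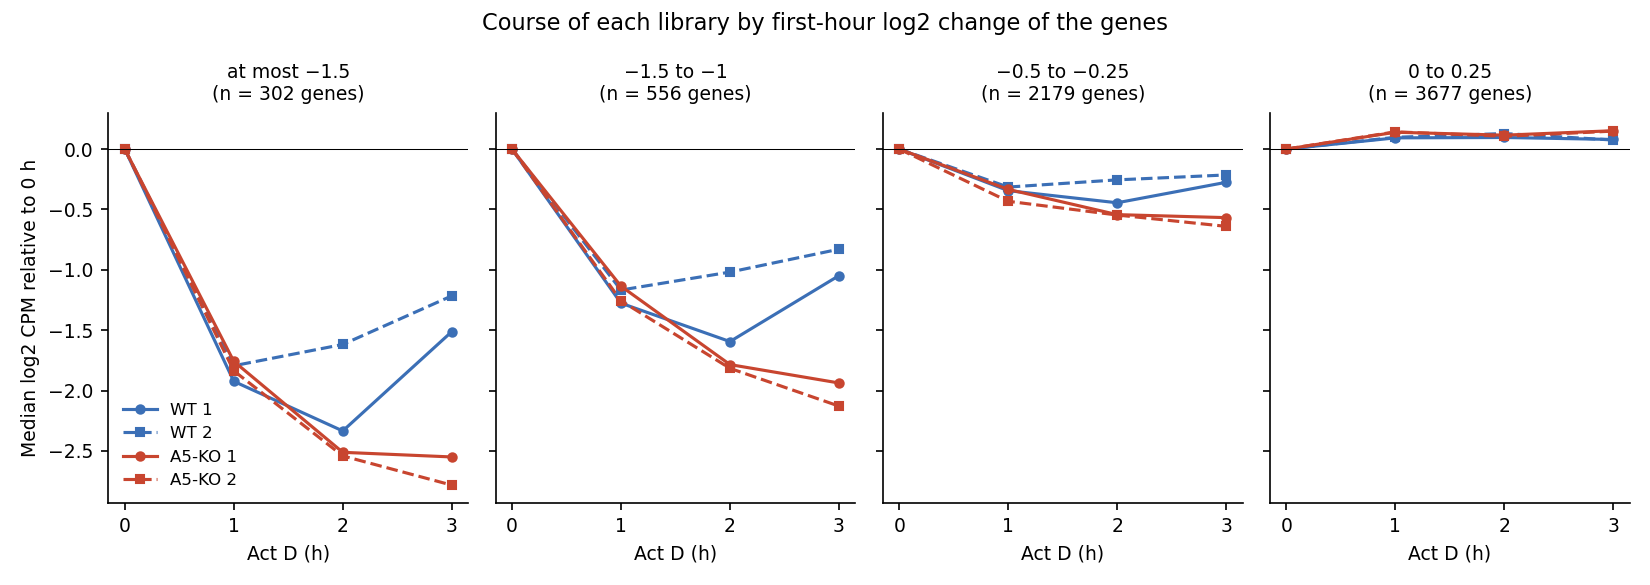
Median log2 CPM relative to 0 h (y axis) at 0, 1, 2 and 3 h of Act D (x axis) in each library, for 4 classes of first-hour change; blue lines are WT replicates 1 and 2 and red lines A5-KO replicates 1 and 2. The lines run together to 1 h, WT replicate 2 leaves them at 2 h and both WT libraries lie above both A5-KO libraries at 3 h in the first 3 panels, while in the last panel every line ends between 0.07 and 0.15.

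Gene lists written by function gave the same picture in named pathways. Feedback inhibitors of receptor tyrosine kinase and ERK signalling led, with 16 of 20 tested members called lower, none higher, and a median log2 difference of -1.47 at 3 h against -0.05 at 0 h. Most of these genes are switched on by ERK and switch the pathway off again, and their mRNAs are known to be short-lived. *DUSP5*, a phosphatase of nuclear ERK (chromosome 10, 110497907 to 110511533, plus strand), had the largest drop of all genes tested. It was at 210.3 and 266 CPM in WT and 18.6 and 15.0 CPM in A5-KO at 3 h, from 967 and 656 in WT and 805 and 592 in A5-KO at 0 h. Both A5-KO libraries were far below both WT libraries at 3 h, whereas the genotypes overlapped at 0 h, and the 3 h difference was -3.75 (standard error 0.13, adjusted *p* = 7.13e-06).

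*SPRY2*, a Sprouty inhibitor of the same pathway, was at 69.4 and 88.9 CPM in WT and 12.9 and 9.01 CPM in A5-KO (difference -2.75, standard error 0.17, adjusted *p* = 7.42e-05). Its relative *SPRY1* was at 24.3 and 23.3 against 3.72 and 3.41 CPM (difference -2.44). *DUSP6*, the cytoplasmic ERK phosphatase, was at 61.6 and 76.9 against 11.02 and 8.51 CPM (difference -2.71). No overlap between the genotypes was a condition for naming these genes, and 45.5% of all genes had both A5-KO libraries below both WT libraries. An unnamed gene on the other strand shares 28.6% of the exon bases of *DUSP6*, but had a mean of only 0.213 CPM. The members with the highest CPM behaved otherwise. *ETV4*, a transcription factor downstream of ERK, was at 144 and 134 CPM in WT and 133 and 123.3 CPM in A5-KO (difference -0.12, adjusted *p* = 0.305), and *DUSP9* was at 145 and 128 against 185 and 173 CPM (difference 0.39, under the 1.5-fold limit).

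Immediate early transcription factors, which cells switch on within minutes of a stimulus, had 19 of 24 members lower and a median of -0.97 (-0.15 at 0 h). Both A5-KO libraries were below both WT libraries for all 24, as for 45.5% of all genes. *MYC*, which drives growth and division, was at 37.6 and 47.1 CPM in WT and 7.44 and 4.33 CPM in A5-KO (difference -2.68, standard error 0.22, adjusted *p* = 0.000153). *KLF10* was at 18.8 and 22.5 against 6.05 and 3.29 CPM (difference -1.97). *JUND*, the AP-1 member of highest CPM here, was at 178 and 122 against 78.9 and 69.2 CPM (difference -0.98), and *SRF*, which drives many of these genes, was at 74.3 and 63.2 against 58.0 and 53.9 CPM (difference -0.29, adjusted *p* = 0.0675). The number lower was 10 after quantile normalization, 5 among genes of at least 10 CPM, 4 without a filter on low values and 8 without A5-KO replicate 2.

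Transcription factors of pancreatic progenitors had 16 of 21 lower. Among the lists, only the ERK feedback genes had a lower median at 3 h than their -1.22 (-0.10 at 0 h). *SOX9*, which keeps progenitors in a multipotent state (chromosome 17, 72121020 to 72126416, plus strand), was at 80.1 and 82.4 CPM in WT and 16.8 and 15.97 CPM in A5-KO. Its replicates hardly differed within a genotype, and the difference was -2.24 (standard error 0.10, adjusted *p* = 2.33e-05). *PDX1*, required for a pancreas to form (chromosome 13, 27920000 to 27926313, plus strand), was at 49.1 and 66.4 CPM in WT and 12.7 and 11.5 CPM in A5-KO (difference -2.15, standard error 0.15, adjusted *p* = 9.28e-05). *NKX6-1*, a factor of the beta cell lineage (chromosome 4, 84491985 to 84499292, minus strand), was at 118 and 119 against 30.7 and 24.98 CPM (difference -2.06, standard error 0.11, adjusted *p* = 4.5e-05).

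At 0 h these 3 genes were much closer between the genotypes, with differences of -0.10 for *SOX9*, -0.14 for *PDX1* and -0.40 for *NKX6-1*. *MNX1*, a homeobox factor of the dorsal pancreas, was at 72.9 and 65.1 against 33.5 and 29.2 CPM at 3 h (difference -1.12). *ONECUT1* (HNF6) went another way, since its gap was widest before Act D. At 0 h it was at 18.7 and 17.1 CPM in WT and 7.23 and 5.33 CPM in A5-KO (difference -1.39). At 3 h it was at 8.502 and 8.91 against 5.37 and 4.93 CPM (difference -0.66, standard error 0.17, adjusted *p* = 0.0213). That call was lost under 8 alternatives, among them median-of-ratios scaling (difference -0.53) and leaving out A5-KO replicate 1 (adjusted *p* = 0.0911) or 2 (adjusted *p* = 0.172). *ONECUT2*, at 90.01 and 107 against 77.7 and 72.7 CPM, was not past the fold limit (difference -0.38). All 9 PP markers were called lower at 3 h, and their summed CPM was 456 and 462 in WT and 135 and 117 in A5-KO.

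Several of these short-lived mRNAs hold the 9 letters TTATTTATT in their 3' untranslated region (3'UTR), a core of the AU-rich elements to which decay factors such as ZFP36 bind. The sites of the lowest members of the 3 lists that hold it are shown to let a reader see the element in its context, with 10 bases on either side, read on the transcript strand of GRCh38 and with the 9 letters in capitals. The genes *FOS*, *FOSL2* and *DUSP1* were chosen for their site after their values were seen.
FOS, chr14:75282060-75282088, plus strand: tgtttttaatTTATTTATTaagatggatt
FOSL2, chr2:28416355-28416383, plus strand: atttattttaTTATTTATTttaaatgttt
PHLDA1, chr12:76029787-76029815, minus strand: tgatttatgaTTATTTATTagtttttttt
DUSP1, chr5:172768643-172768671, minus strand: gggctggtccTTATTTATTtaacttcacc
SOX9, chr17:72125498-72125526, plus strand: cttgctaaaaTTATTTATTttgtaaggag
ONECUT1, chr15:52755184-52755212, minus strand: gaggaaagccTTATTTATTtaaaacgtga

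*FOS* was at 15.3 and 15.6 CPM in WT and 4.66 and 4.71 CPM in A5-KO at 3 h (difference -1.53, standard error 0.16, adjusted *p* = 0.000367). *PHLDA1* was at 32.4 and 35.0 against 7.27 and 5.63 CPM (difference -2.23), *DUSP1* at 9.84 and 9.26 against 2.07 and 2.31 CPM (difference -1.73) and *FOSL2* at 9.73 and 11.6 against 3.01 and 3.29 CPM (difference -1.49). The 9 letters are in the 3'UTR of 1171 of the 12107 protein-coding genes tested (9.67%), on the transcript strand only. Of these, 311 (26.6%) were lower at 3 h and 7 higher, with a median of -0.28, against 1876 of 10936 (17.2%) and a median of -0.12 for genes without them. The difference between the 2 shares was small beside that between fast and slow genes in the first hour, and no test was made of it. Most protein-coding genes called lower were without them, as were most of the protein-coding genes tested.

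**Figure D3:**
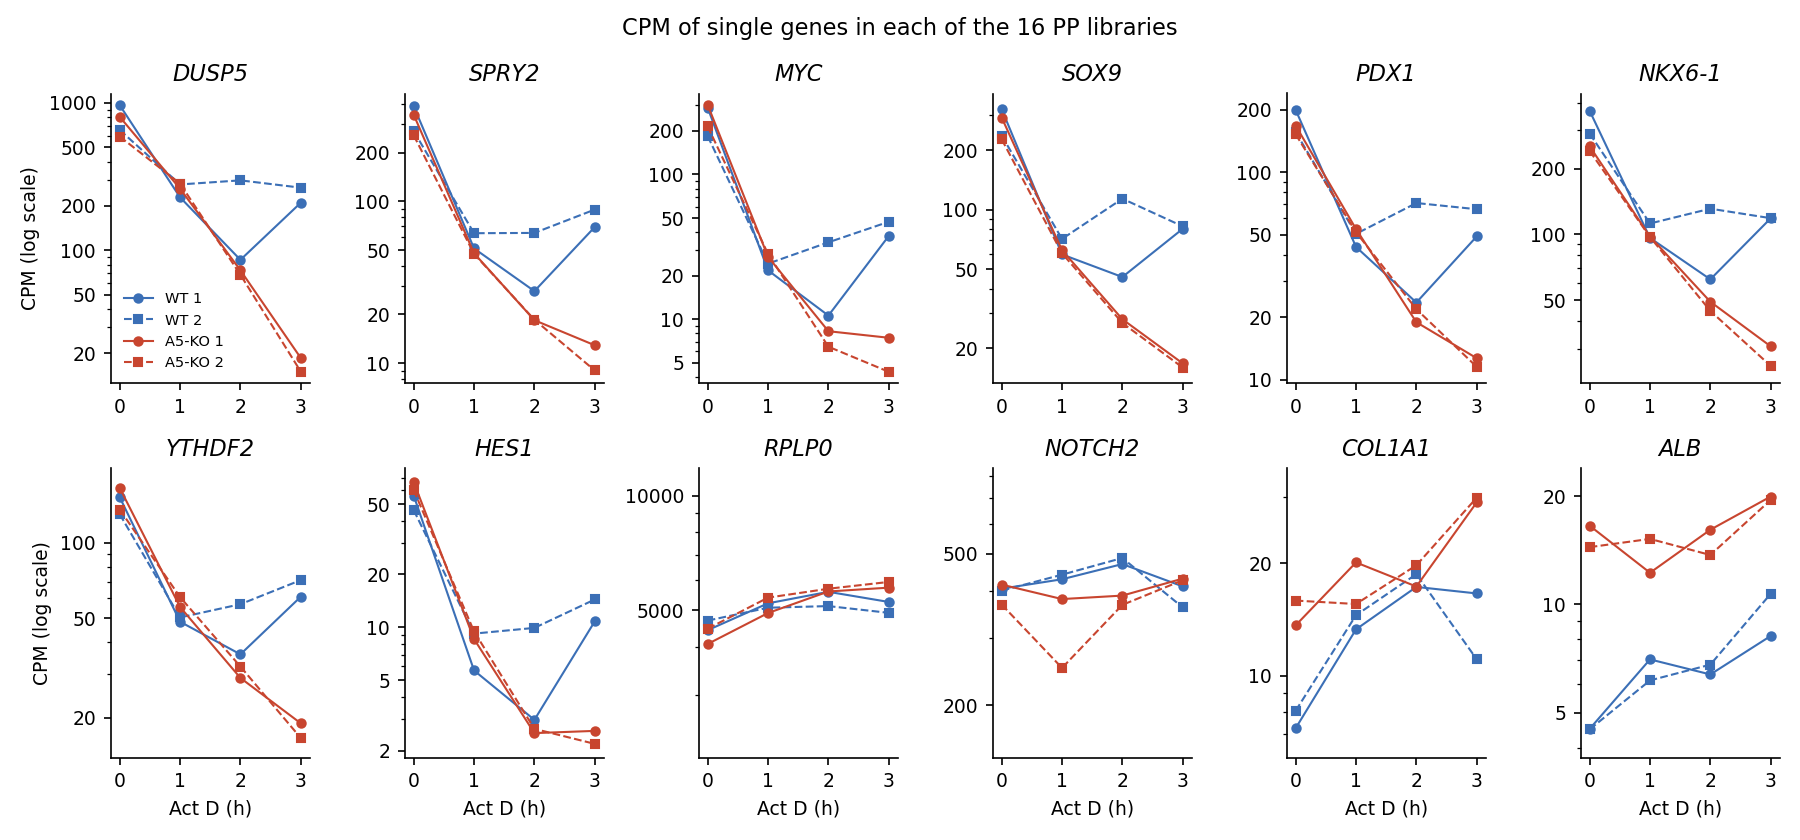
CPM on a log axis (y) at 0, 1, 2 and 3 h of Act D (x) for 12 genes in each of the 16 PP libraries; blue is WT and red A5-KO, circles with solid lines replicate 1 and squares with dashed lines replicate 2. In the 8 genes from *DUSP5* to *HES1* both WT libraries lie above both A5-KO libraries at 3 h, *RPLP0* and *NOTCH2* stay level, and *COL1A1* and *ALB* are higher in A5-KO at 0 h as well as 3 h.

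The wider endoderm network also held many lower genes. In the list of hepatic nuclear factors and FOXA factors, which shape liver, gut and pancreas, 12 of 18 were lower, with a median of -1.02 (0.09 at 0 h), and some members are also in the pancreatic list. *FOXA2* was at 25.6 and 23.9 CPM in WT and 7.81 and 6.39 CPM in A5-KO (difference -1.67), *GATA6* at 51.7 and 43.4 against 11.8 and 9.96 CPM (difference -2.03) and *GATA4* at 42.9 and 45.5 against 14.2 and 13.6 CPM (difference -1.60). *HNF4A*, which also defines hepatocytes and enterocytes, was at 91.7 and 95.1 against 89.4 and 79.4 CPM and did not pass the test (difference -0.15, adjusted *p* = 0.257). Only 5 of 16 endocrine lineage factors reached 1 CPM, and 3 of them were lower, or 1 without A5-KO replicate 2. *HHEX* was one (10.3 and 11.8 against 4.77 and 3.64 CPM, difference -1.22), and *RFX6* was not (3.37 and 3.25 against 4.15 and 2.498 CPM, difference -0.02).

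Signalling pathways downstream of other receptors were lower in part, and the target genes of BMP signalling most often. BMP and TGF-beta response genes had 15 of 21 lower, with a median of -0.90. The ID genes, which encode inhibitors of basic helix-loop-helix factors, turned direction over the chase. *ID2* started from 167 and 134 CPM in WT and 266 and 214 CPM in A5-KO at 0 h (difference 0.67) and was at 101 and 119.8 against 34.0 and 29.9 CPM at 3 h (difference -1.75, standard error 0.11, adjusted *p* = 7.42e-05). *ID3* went from 0.60 to -1.21 and *ID1* from 0.53 to -0.93. *BMP2*, a ligand of the pathway, was at 14.8 and 13.0 against 2.73 and 2.66 CPM at 3 h (difference -2.01).

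In the Notch pathway 10 of 29 were lower, with a median of -0.32, and the count was 4 without A5-KO replicate 2, 5 after quantile normalization and 3 without a filter on low values. The targets *HES1* (10.8 and 14.4 against 2.58 and 2.18 CPM, difference -1.996, adjusted *p* = 0.000335) and *HEY1* (17.5 and 20.2 against 6.33 and 6.96 CPM, difference -1.37) were among them. The receptor *NOTCH2*, at 410.4 and 361 against 430.1 and 426 CPM (difference 0.15), and the protease *ADAM10*, at 277 and 289 against 255 and 254 CPM (difference -0.15), did not pass the test. Wnt feedback genes had 8 of 18 lower (median -0.52). They included the receptors *FZD5*, at 151 and 140.2 against 62.6 and 52.0 CPM (difference -1.34), and *FZD8* (difference -1.52), and the nuclear effector *TCF7L2*, at 46.7 and 57.8 against 19.5 and 15.6 CPM (difference -1.52). The secreted inhibitor *SFRP5* was at 134 and 118 against 142 and 152 CPM (difference 0.22, adjusted *p* = 0.09). Targets of YAP and TEAD had 10 of 20 lower (median -0.60), led by *AMOTL2*, at 15.8 and 18.5 against 4.60 and 4.90 CPM (difference -1.65). The count was 5 without A5-KO replicate 2, 6 after median-of-ratios scaling and 3 after quantile normalization.

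Genes that act on mRNA itself were part of the class. Of 24 m6A writers, readers and erasers, 12 were lower (50.0%, against 16.6% of all genes), none higher, and the median was -0.69 (0.06 at 0 h). The 12 include the edited gene *ALKBH5*, which was lower at 0 h as well. *YTHDF2*, the reader linked to decay, was at 60.9 and 70.9 CPM in WT and 19.03 and 16.6 CPM in A5-KO (difference -1.83, standard error 0.12, adjusted *p* = 8.21e-05), and at 0 h the genotypes overlapped (difference 0.09). A gene with no symbol on the other strand shares 24.7% of its exon bases. *YTHDF1* was at 32.6 and 40.7 against 12.2 and 14.1 CPM (difference -1.41). The rest of the list was looked at after its values were seen. *METTL14* (difference -0.90), *WTAP* (-1.17) and *ZC3H13* (-0.73) of the writer complex were lower. *ZC3H13* lost its call after median-of-ratios scaling (-0.58) and quantile normalization (-0.54), and *METTL14* lost its call with no filter on low values. The catalytic *METTL3*, at 43.4 and 57.5 against 47.8 and 49.1 CPM (difference -0.04), and the eraser *FTO*, at 29.6 and 24.2 against 22.5 and 19.3 CPM (difference -0.35, adjusted *p* = 0.0994), did not pass. *HNRNPC* and *HNRNPA2B1*, abundant RNA-binding proteins counted as readers, had differences of 0.07 and 0.02.

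Factors of AU-rich element binding and mRNA decay had 20 of 54 lower, with a median of -0.33. *ZFP36L2*, which binds AU-rich elements, was at 89.2 and 72.5 against 19.7 and 16.03 CPM (difference -2.12, standard error 0.14, adjusted *p* = 7.42e-05). The antiproliferative genes *BTG1*, at 43.2 and 58.2 against 9.23 and 5.44 CPM (difference -2.66), and *BTG2*, at 49.8 and 65.5 against 18.1 and 15.1 CPM (difference -1.73), bring deadenylases to mRNA and are also in the p53 list. That list had 13 of 29 lower and a median of -0.56. The p53 phosphatase gene *PPM1D* was at 6.53 and 9.92 against 1.85 and 1.23 CPM (difference -1.85), whereas *CCNG1*, a cyclin gene of the same list, was at 605 and 584 against 468 and 459.6 CPM, a difference under the 1.5-fold limit (difference -0.36, adjusted *p* = 0.00444). The poly(A) binding protein gene *PABPC1* was at 2121 and 1731 against 2313 and 2279.5 CPM (difference 0.26, adjusted *p* = 0.0774).

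The largest list was that of genes named ZNF, which encode zinc finger proteins, many of them repressors of transcription. Of 335 tested, 168 (50.1%) were lower, none higher, and the median was -0.69 (0.03 at 0 h). Both A5-KO libraries were below both WT libraries for 277 of the 335, against 45.5% of all genes. The median first-hour change of these genes was -0.89, against -0.11 for all genes. *ZNF703* was at 37.9 and 42.3 CPM in WT and 10.7 and 6.45 CPM in A5-KO (difference -2.14), and *ZNF281* at 13.4 and 10.8 against 3.24 and 1.61 CPM (difference -1.97). The member with the highest CPM, *ZNF664*, was at 171 and 198 against 210.1 and 219.8 CPM (difference 0.22, adjusted *p* = 0.0881). Many of these genes are close paralogs with a median of 5.29 CPM, and how reads of near-identical copies were counted is not given in the sources used here. The count of lower members was 96 after quantile normalization, 45 without a filter on low values and 76 without A5-KO replicate 2.

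Smaller lists were divided within. Circadian clock genes had 7 of 14 lower (median -0.67), among them *TEF* (difference -1.22) and *PER1*, at 28.9 and 29.7 against 15.1 and 13.8 CPM (difference -0.98). In the list of CXC chemokine and NF-kB response genes 8 of 17 were lower and 1 higher. The number lower was 3 after median-of-ratios scaling, 4 and 3 without A5-KO replicate 1 or 2, and 5 without WT replicate 1. The inhibitor *NFKBIE* was at 7.88 and 7.08 against 1.85 and 1.49 CPM (difference -1.67), and the neutrophil chemokine *CXCL5* was higher, at 7.37 and 10.1 against 18.9 and 17.2 CPM (difference 0.98), having been higher at 0 h too (difference 1.92). Against 16.6% of all genes, 4 of 19 genes for SR splicing factors and CLK kinases were lower (21.1%). Of these, *CLK3*, at 25.3 and 25.02 against 7.56 and 9.64 CPM (difference -1.46), and *CLK1* (difference -1.06) encode kinases, while the splicing factor genes of highest CPM, *SRSF3* (difference -0.58) and *SRSF5* (difference -0.25), were under the fold limit.

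Cell cycle genes had 10 of 46 lower (21.7%, median -0.27), near the 16.6% of all genes. The mitotic kinases *AURKA*, at 35.8 and 45.8 against 11.6 and 9.80 CPM (difference -1.83), and *TTK* (difference -1.42) and the phosphatase *CDC25A* (difference -1.18) were lower, but *CCND1*, at 1408 and 1178 against 1196 and 1199 CPM (difference -0.10), and *TOP2A*, at 431 and 449.7 against 384 and 381 CPM (difference -0.20), did not pass. The unfolded protein response had 8 of 26 lower (30.8%, against 16.6% of all genes), or 4 after quantile normalization, and its median was -0.10. Its transcription factor *XBP1* was at 87.8 and 96.4 against 26.2 and 24.1 CPM (difference -1.83, adjusted *p* = 4.5e-05), while its chaperone *HSPA5* was at 985 and 984 against 909 and 898 CPM (difference -0.12, adjusted *p* = 0.197). Sterol and fatty acid synthesis had 6 of 33 lower (18.2%, median -0.10), also near the share of all genes. The regulator *INSIG1* (difference -1.12) was lower, and the desaturase *SCD* was at 1391 and 1228 against 1564 and 1579 CPM (difference 0.27). In each of these lists the 2 members of highest CPM were not called.

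Retinoic acid pathway genes had 4 of 13 lower (30.8%, against 16.6% of all genes), with a median of 0.11. The receptor *RARA* was at 10.9 and 8.91 against 4.09 and 2.47 CPM (difference -1.37), and the synthetic enzyme *ALDH1A1* was at 189 and 207 against 251 and 263 CPM (difference 0.38, under the fold limit). Interferon-stimulated genes had 2 of 19 lower (10.5%, against 16.6% of all genes) and 1 higher. *B2M* was at 103 and 131 against 113 and 114 CPM (difference -0.03). In the list of glycolysis and hypoxia genes 3 of 35 were lower (8.57%), or 8 without WT replicate 2, with *EGLN3*, an oxygen sensor, at 17.2 and 17.4 against 6.82 and 5.44 CPM (difference -1.37). The enzymes *GAPDH*, at 2146 and 2341 against 2276 and 2382 CPM (difference 0.06), and *ENO1* (difference 0.04) did not pass the test.

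Several lists of housekeeping machines had few or no lower calls. None of 79 cytosolic ribosomal protein genes was called in either direction. Their median was 0.16 at 3 h and -0.10 at 0 h, and both A5-KO libraries were above both WT libraries for 48 of the 79, against 20.5% of all genes. *RPLP0*, a protein of the ribosomal stalk, was at 5256 and 4922 CPM in WT and 5731 and 5932 CPM in A5-KO (difference 0.20, standard error 0.08, adjusted *p* = 0.101). The median of these genes was 0.31 after median-of-ratios scaling, which called 4 of them higher, and 0.05 after quantile normalization. None of 38 translation factor genes was called (median -0.04), with *EEF1A1* at 26676 and 24947 against 28164 and 28843 CPM (difference 0.14). Of 75 nuclear genes of the respiratory chain none was lower, and the median was 0.15. *ATP5F1B*, the catalytic subunit of ATP synthase, was at 960.4 and 978 against 1097 and 1083 CPM (difference 0.17). The one member called higher, *ATP5ME*, at 16.7 and 13.7 against 20.1 and 29.5 CPM, shares 61.3% of its exon bases with *MYL5* on the other strand, and the call was lost without A5-KO replicate 2 (difference 0.38, adjusted *p* = 0.326).

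Proteasome genes had both A5-KO libraries below both WT libraries for 19 of 42, against 45.5% of all genes. Of the 42, 3 were called lower (7.14%, against 16.6% of all genes), and the median was -0.11, against -0.12. *PSMD12* was one (46.8 and 48.6 against 27.4 and 26.7 CPM, difference -0.80), and *PSMB4* was at 291 and 273 against 300.1 and 297 CPM (difference 0.08). Mitochondrial ribosomal protein genes had 7 of 73 lower (9.59%, median -0.16), with 3 lower without A5-KO replicate 2 or WT replicate 2 and 15 without WT replicate 1. Both A5-KO libraries were below both WT libraries for 35 of the 73. *MRPS30* was at 48.0 and 49.0 against 26.2 and 20.2 CPM (difference -1.05), and *MRPL42*, the member of highest CPM, was at 169 and 177 against 166 and 173 CPM. None of 18 histone genes and none of 15 clustered protocadherin genes was called, with medians of 0.04 and 0.11. Of all genes, 17.7% were called in either direction. Protocadherin genes of the gamma cluster share exons, so their counts are not independent. Small nucleolar RNA host genes were near the share of all genes, with 5 of 23 lower (21.7%, against 16.6%). Their median was -0.04, against -0.12 for all genes. The count was 2 after median-of-ratios scaling and 1 after quantile normalization. *SNHG15* was lower, at 16.9 and 18.8 against 9.88 and 8.19 CPM (difference -0.91), while *GAS5* was at 393 and 404 against 373 and 396 CPM (difference -0.05). Only 7 of 39 HOX genes reached 1 CPM, and 1 of them was lower. No metallothionein gene did.

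**Figure D4:**
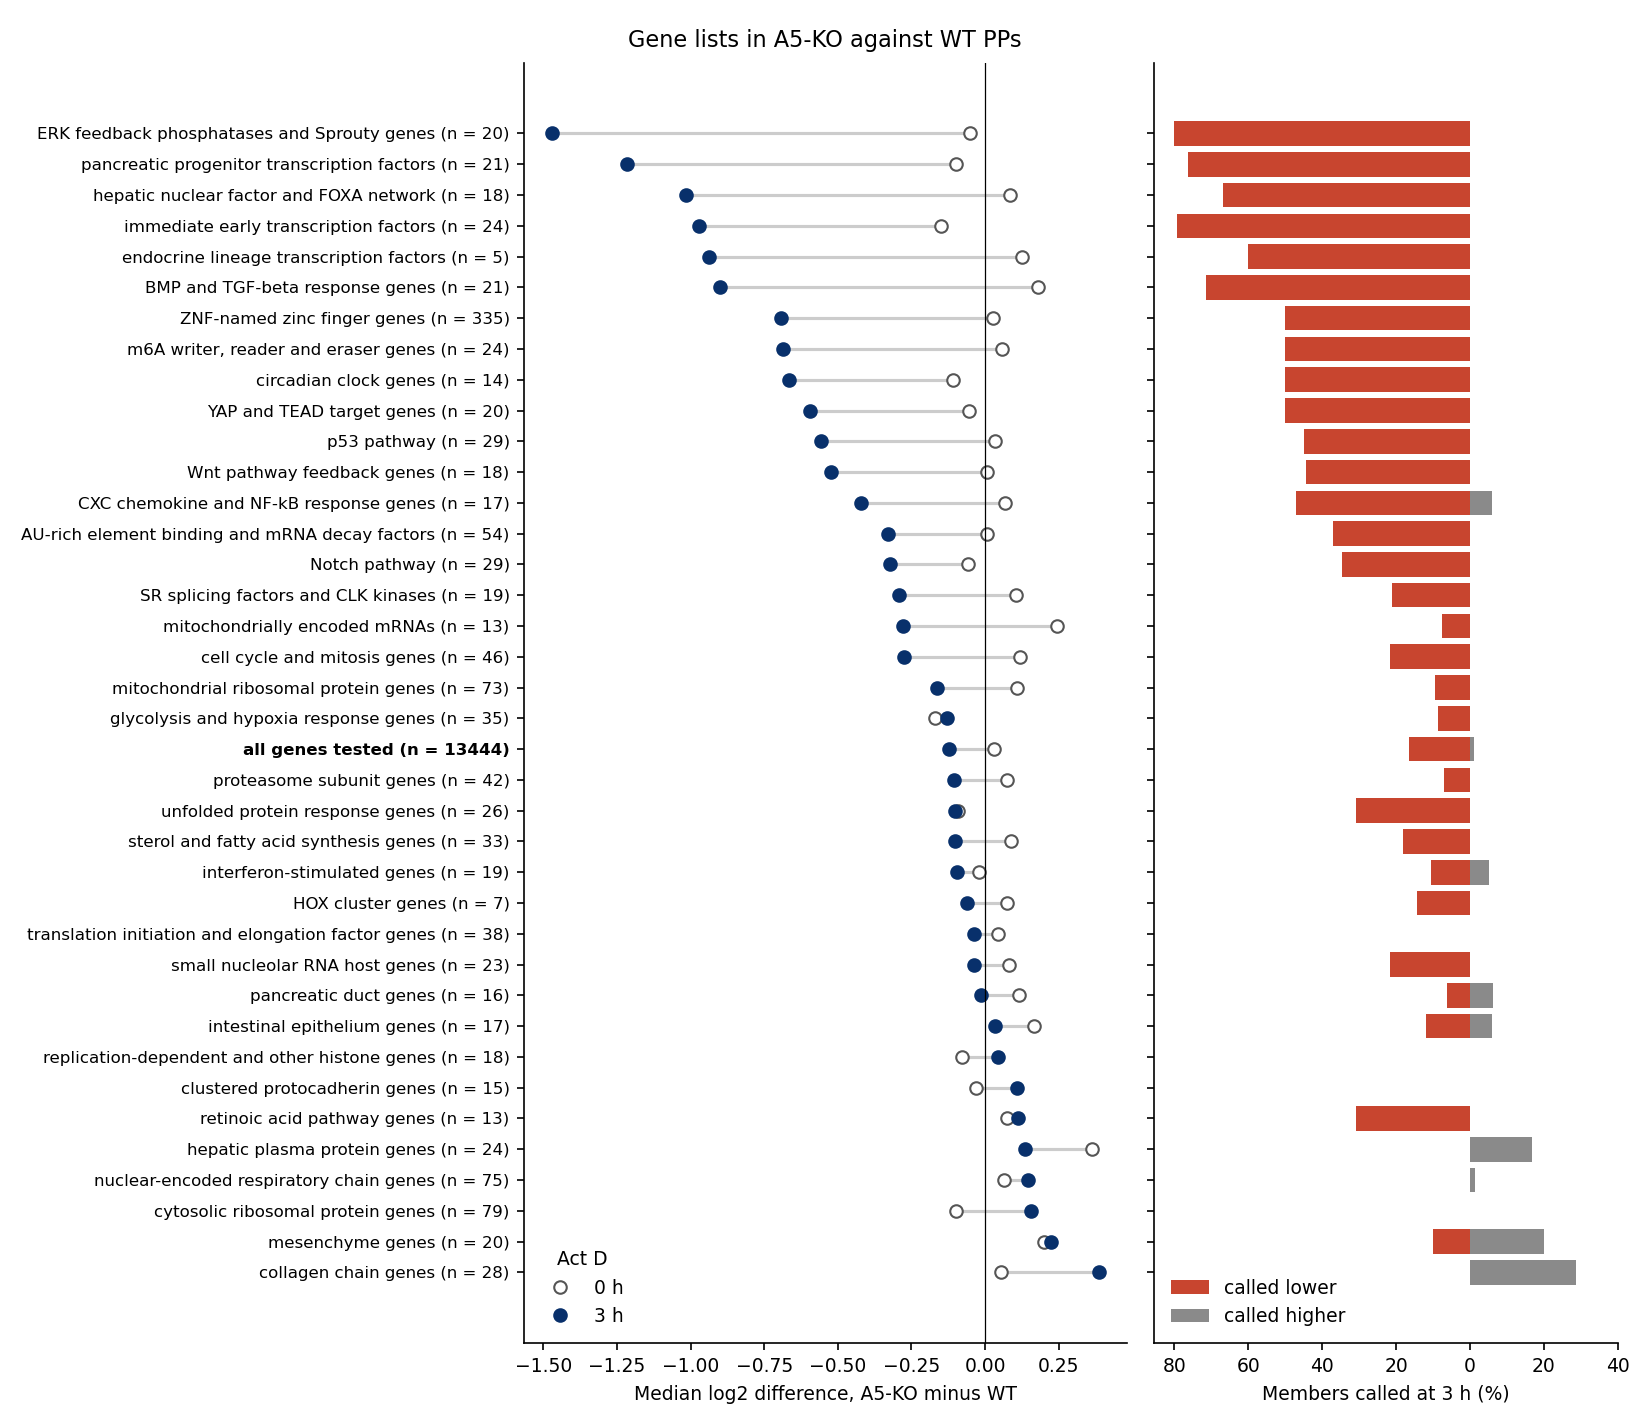
Left, median log2 difference (A5-KO minus WT, x axis) of each gene list at 0 h (open circles) and 3 h (filled circles), ordered by the 3 h value, with the number of tested members in brackets and all 13444 genes in bold. Right, percent of members called lower (red, to the left) and higher (grey, to the right) at 3 h; the lists at the top, from ERK feedback genes at -1.47 downwards, hold the lower calls, and the collagen list at the bottom (0.39) holds the largest share of higher calls.

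RNA made in mitochondria was split. Of the 13 mRNAs encoded by mitochondrial DNA, 1 was called lower at 3 h, and the median of the list was -0.28, against 0.24 at 0 h. *MT-ND2*, a subunit of complex I, was at 2936 and 3059 CPM in WT and 1543 and 1443 CPM in A5-KO (difference -1.01, standard error 0.07, adjusted *p* = 9.81e-05), after 3627 and 3329 against 4707 and 3947 CPM at 0 h. *MT-CO1*, the most abundant, was at 37631 and 41138 against 36250.0 and 36694 CPM (difference -0.11, adjusted *p* = 0.497). The ribosomal RNA of the small mitochondrial subunit, *MT-RNR1*, which was chosen after its values were seen, went the other way. It was at 8278 and 7269 CPM in WT and 13561 and 15371 CPM in A5-KO (difference 0.90, standard error 0.10, adjusted *p* = 0.000566), and at 4317 and 5189.5 against 3384 and 3958 CPM at 0 h. *MT-RNR2*, its large-subunit partner, had a difference of 0.12.

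The 144 genes higher in A5-KO at 3 h were of another kind. Their median difference was 0.74 at 3 h and 0.53 at 0 h, and 61 of them (42.4%) were also called higher at 0 h. Of the 2234 lower genes, 46 (2.06%) were also called lower at 0 h, 17 were called higher there, and the median at 0 h was 0.01. The genotype difference was also tested as an interaction over the 8 libraries at 0 h and 3 h. It was lower at 3 h for 2149 genes (16% of all tested), 1732 of them among the 2234. It was higher for 103 (0.766%), 17 of them among the 144. The calls at 3 h and the interaction share the libraries at 3 h, so these overlaps are a description only. Collagen genes had 8 of 28 higher (28.6%, against 1.07% of all genes) and none lower, with a median of 0.39 at 3 h and 0.05 at 0 h. *COL28A1* (chromosome 7, minus strand) was at 12.1 and 13.5 CPM in WT and 41.0 and 36.7 CPM in A5-KO (difference 1.53, adjusted *p* = 0.00016), and at 5.68 and 4.59 against 31.6 and 25.5 CPM at 0 h. *COL1A1*, a chain of fibrillar collagen, was at 16.6 and 11.1 against 29.1 and 29.9 CPM (difference 1.07), and *COL5A1* at 8.68 and 6.70 against 19.2 and 16.7 CPM (difference 1.13). The cartilage collagen gene *COL2A1*, of highest CPM, was at 795 and 699 against 1019 and 1012 CPM (difference 0.45), under the fold limit. Median-of-ratios scaling called 12 collagen genes higher, and 4 were called without A5-KO replicate 1.

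Mesenchyme genes had 4 of 20 higher (20.0%, against 1.07% of all genes) and 2 lower (10.0%, against 16.6%). *POSTN*, a matrix protein, was at 21.7 and 31.4 against 70.0 and 60.3 CPM (difference 1.28) after 10.1 and 10.6 against 52.97 and 46.2 CPM at 0 h. The lower members were transcription factors, *SNAI2* at 8.89 and 11.3 against 1.76 and 1.77 CPM (difference -1.998) and *ZEB1* at 20.3 and 24.2 against 12.6 and 11.6 CPM (difference -0.83). The summed CPM of 6 mesenchyme markers was 74.4 and 67.5 in WT and 140.1 and 138 in A5-KO at 3 h, and 38.4 and 42.8 against 88.4 and 95.6 at 0 h. The sum is not separate from the collagen and mesenchyme lists, since its marker *COL1A1* is a member of both. The markers *PRRX1* and *TWIST1* had a mean under 1 CPM at 3 h. The part of such cells in these differences was not tested.

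Hepatic plasma protein genes had 4 of 24 higher (16.7%, against 1.07% of all genes) and none lower, with a median of 0.14 at 3 h and 0.36 at 0 h. *TTR*, which carries thyroid hormone, was at 15.2 and 22.8 CPM in WT and 48.7 and 47.8 CPM in A5-KO (difference 1.33, adjusted *p* = 0.000776), after 6.60 and 7.41 against 35.1 and 35.7 CPM at 0 h (difference 2.19). *ALB*, which encodes albumin, was at 8.17 and 10.7 against 20.0 and 19.5 CPM (difference 1.00 at 3 h and 1.58 at 0 h). *AFP*, the fetal plasma protein, was at 878 and 1032 against 1596 and 1504 CPM (difference 0.70 at 3 h and 1.24 at 0 h), whereas *APOE* was at 1424 and 1309.9 against 1419 and 1469.6 CPM (difference 0.08). In *TTR*, *ALB* and *AFP* the WT level was higher at 3 h than at 0 h, and the gap was smaller. In *TTR* the A5-KO level was higher at 3 h as well. The interaction test called the difference lower at 3 h for 1 of the 24 members, *TTR*. Of 6 hepatocyte markers 4 were called higher, and these are the same 4 genes as in the list. The summed CPM of the 6 markers was 1015 and 1064 in WT and 1772 and 1816 in A5-KO at 0 h. At 3 h it was 1402 and 1539 against 2213 and 2077, most of it from *AFP*. How far cells of that kind account for the differences was not tested.

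In the intestinal list 2 of 17 genes were lower (11.8%, against 16.6% of all genes) and 1 higher (5.88%, against 1.07%). The intestinal factors *CDX2*, at 111 and 107 against 41.4 and 36.9 CPM (difference -1.46, and 0.49 at 0 h), and *ISX* (difference -1.86) were lower, the brush border peptidase *ANPEP* was higher, at 17.2 and 16.8 against 31.5 and 33.1 CPM (difference 0.89), and the other 14 of the 17 passed in neither direction. The summed CPM of 4 intestinal markers, of which *CDX2* is one, was 691 and 711 in WT and 815 and 790.1 in A5-KO. In the duct list 1 of 16 was lower (6.25%, against 16.6% of all genes) and 1 higher (6.25%, against 1.07%). The higher one was *TSPAN8*, at 56.1 and 70.8 against 98.9 and 95.9 CPM (difference 0.62). The duct keratin *KRT19* was at 412 and 396 against 279.8 and 262 CPM (difference -0.57), just under the fold limit, and it passed that limit after quantile normalization.

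Some of the genes with the largest increase were not higher at 0 h. *MIR3648-1*, a microRNA gene with near-identical copies (chromosome 21, 8208473 to 8208652, plus strand), was at 15.96 and 9.04 CPM in WT and 111 and 100.0 CPM in A5-KO (difference 3.03, standard error 0.21, adjusted *p* = 9.28e-05). Before the chase its 4 libraries were at 1.84 and 1.24 CPM in WT and 1.08 and 1.79 CPM in A5-KO. *NEAT1*, the long non-coding RNA of nuclear paraspeckles (chromosome 11, 65422774 to 65445540, plus strand), was at 50.0 and 47.3 against 113 and 121 CPM at 3 h and 38.2 and 38.1 against 31.0 and 34.7 CPM at 0 h (difference 1.25, standard error 0.09). Another nuclear RNA, *MALAT1*, chosen after its values were seen, was at 47.2 and 54.5 against 61.6 and 57.1 CPM (difference 0.22, adjusted *p* = 0.144). *MX2*, an antiviral GTPase gene, was higher at both times, with 3.22 and 2.09 against 23.1 and 22.9 CPM at 3 h (difference 2.73) and 0.402 and 0.589 against 21.0 and 14.0 CPM at 0 h. *SLIT3* (difference 1.35), *GNRH2* (1.27), *CCDC144NL-AS1* (1.297), *FGB* (1.19), *CHST13* (1.17), *SLC13A3* (1.16) and *PKIB* (1.16) completed the genes of largest increase, and each had a positive difference at 0 h as well, between 1.201 (*SLIT3*) and 3.19 (*CCDC144NL-AS1*). *CD99*, also in that set, lies in the region that X and Y share, and its values are not given.

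Genes with the largest decrease outside the lists were of several functions. *NEDD9*, a scaffold of cell adhesion, was at 10.9 and 29.6 CPM in WT and 1.65 and 1.49 CPM in A5-KO (difference -2.90, standard error 0.37, adjusted *p* = 0.000803), with WT replicates that themselves differed widely. *KLF5*, a factor of proliferating epithelium, was at 136 and 161 against 34.6 and 27.1 CPM (difference -2.23). *SHISA2*, an inhibitor of FGF and Wnt signalling, was at 242 and 225 against 57.7 and 45.8 CPM (difference -2.16). *C15orf39* (difference -2.43) and *FAM83D* (difference -2.24), a gene of the mitotic spindle, followed. *C2CD4A* was lower at both times, with 22.4 and 21.6 against 5.17 and 3.29 CPM at 3 h (difference -2.16) and 73.4 and 63.2 against 24.2 and 26.3 CPM at 0 h (difference -1.40).

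Transcript features were described over the 12107 protein-coding genes tested, 18.1% of which were lower, from their canonical transcript in GENCODE. Long non-coding genes carried less of the difference, with 36 of 777 lower (4.63%), and 2 of 256 processed pseudogenes were lower (0.781%). Genes of a single exon had 94 of 222 lower (42.3%), those of 2 exons 194 of 487 (39.8%), and those of more than 10 exons 752 of 5314 (14.2%). A transcript under 1000 bases was seldom lower (19 of 614, 3.09%), against 564 of 2368 (23.8%) over 6000 bases. The share ran from 8.74% with a 3'UTR of up to 300 bases to 23.3% over 4000 bases, and from 22.9% at a GC content of up to 40% to 207 of 1889 genes over 60%. The letters GGACT, a common form of the m6A motif, were counted along the transcript, and the share was 10.2% with none, 23.8% with 7 to 10 and 20.0% with more than 10, a count that also grows with length. None of these features separated the genes as far as the first-hour change did. Within bands of GC content, exon number, transcript length or CPM, between 79.7% and 92.2% of genes with a first-hour change of at most -1 were lower, and between 0.513% and 5.48% of those with a change over -0.25.

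**Figure D5:**
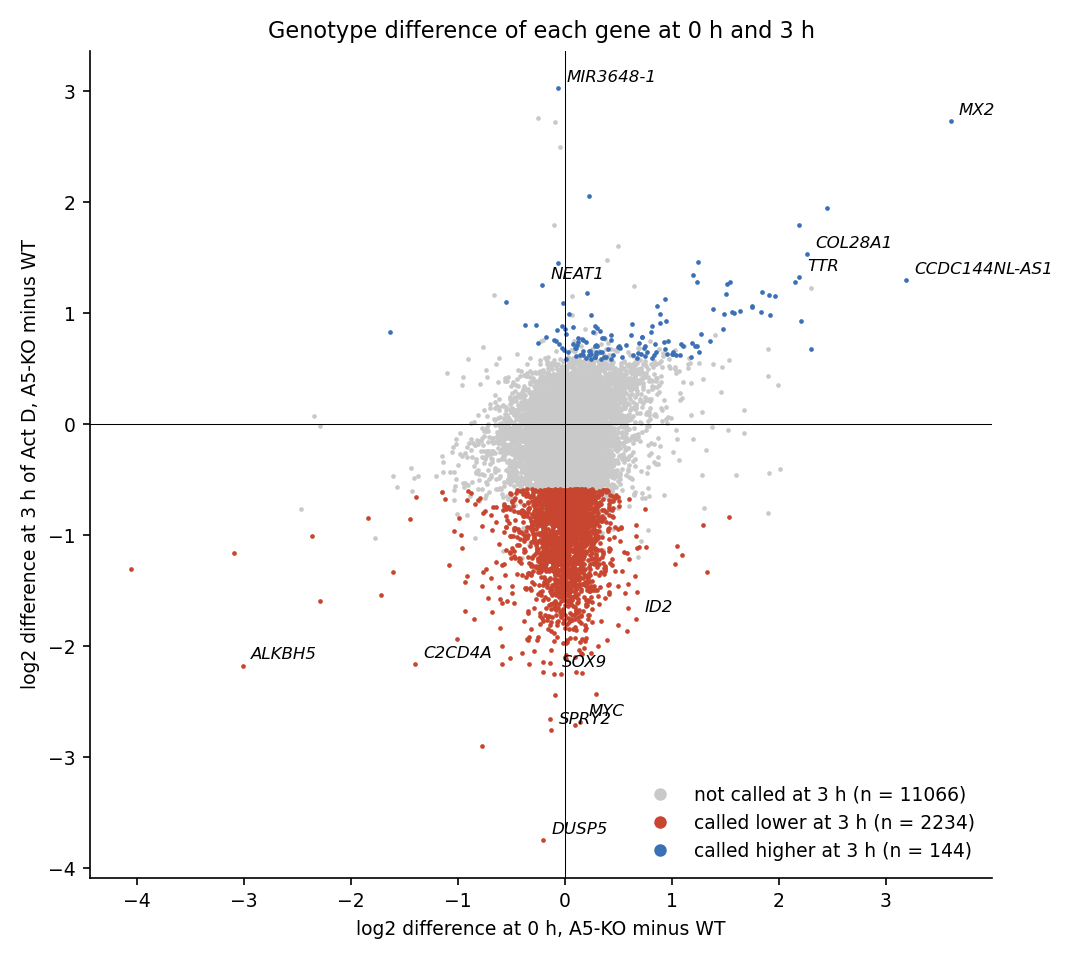
Log2 difference (A5-KO minus WT) of each of the 13444 genes at 0 h (x axis) and at 3 h of Act D (y axis); red points are the 2234 genes called lower at 3 h, blue points the 144 called higher and grey points the rest. The red points have a median of 0.01 on the x axis and the blue points one of 0.53, so that the first lie around 0 and many of the second to the right.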

How the data were processed

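RNA of PPs derived from the MEL1 INSGFP/W line was sequenced from 16 libraries, and the 4 libraries at 3 h of Act D were compared by genotype. According to the study's methods and the labels, reads were trimmed with fastp, aligned with HISAT2 2.1.0 to the human genome (hg38) and counted per gene, and spike-in reads were then removed. The read counter, its use of strand and the annotation release are not given in the sources used here. The authors deposited the values of the PPs as CPM, that is counts scaled to a library of fixed size, with no further normalization. The spike-in conversion of the study was not repeated, so a loss of total RNA during the chase is not seen. A further 4 libraries of human islet-like organoids (hILOs), deposited in TPM by the authors, were not used here.

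Between 99.9957% and 100% of the CPM values came out as whole reads (tolerance 0.02) once divided by the value of 1 read, which gave the depth of each library and the reads for the count tests. Of 60623 identifiers, 60369 matched a symbol and coordinates in GENCODE v44. Genes averaging 1 CPM or more over the libraries at 3 h were tested with limma 3.58.1 in R 4.3.3 on log2(CPM + 1), a scale that understates changes of low genes, with a mean-variance trend, over the 4 libraries. A call needed more than a 1.5-fold change (0.585 on the log2 scale) and, by Benjamini and Hochberg, an adjusted *p* below 0.05. The difference between 3 h and 0 h was tested as an interaction over 8 libraries. The study's methods call the replicates biological, while the labels do not say whether they came from separate differentiations, and the *p*-values measure only the spread between them.

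The fits were first tested on simulated counts with known changes. The genes compared and the 38 gene lists were chosen with earlier results of these data known. Genes were named by rule. It took the up to 15 called genes of largest change in each direction with at least 10 CPM and no overlap between the genotypes. From each list it took the up to 3 called genes of largest change per direction with at least 5 CPM, and the 2 of highest CPM. Genes the study itself names were included. Some genes that the rule names are not reported here. *METTL3*, *METTL14*, *WTAP*, *ZC3H13*, *FTO*, *FOXA2*, *GATA4*, *GATA6*, *MT-RNR1*, *MT-RNR2* and *MALAT1* were added after their values were seen. Alternatives were count tests of the recovered reads (DESeq2 1.42.0, edgeR 4.0.16), other scalings, filters, pseudocounts and thresholds, a replicate block and the omission of single libraries. Overlaps of exons of at least 20% were looked up for named genes. Site sequences and transcript features came from the GRCh38 genome and the GENCODE v44 canonical transcripts.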

Additional observations from a re-analysis of the deposited data

Results flagged for a closer look

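The interaction test asks whether the genotype difference at 3 h differs from that at 0 h. By limma with adjusted *p* below 0.05 and over 1.5-fold, the difference was lower at 3 h than at 0 h for 2149 genes (16%) and higher for 103 (0.766%).

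Of the genes named for the size of their change or by the study, 28 passed this test, 24 with a lower and 4 with a higher value at 3 h. Genes named for size were chosen on the 3 h libraries, which this test uses too, so the count is a description only. Values are the difference at 3 h minus that at 0 h on the log2 scale. For the ERK feedback genes they were -3.54 in *DUSP5*, -2.62 in *SPRY2*, -2.80 in *DUSP6*, -2.35 in *SPRY1* and -2.02 in *PHLDA1*. Among transcription factors of progenitors they were -2.14 in *SOX9*, -2.01 in *PDX1*, -1.66 in *NKX6-1* and -0.92 in *MNX1*. *MYC* changed by -2.83, *BTG1* by -2.52, *KLF5* by -2.34, *YTHDF2* by -1.92, *SHISA2* by -1.83, *FAM83D* by -2.40, *C15orf39* by -2.73 and *NEDD9* by -2.12, the last with a standard error of 0.48 and an adjusted *p* of 0.00967. In all of these except *NEDD9* the difference at 0 h was between -0.40 (*NKX6-1*) and 0.29 (*C15orf39*), and the gap was larger at 3 h.

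*C2CD4A* was lower at both times and moved by -0.76. *ALKBH5* itself moved by 0.84 and *ONECUT1* by 0.73 (adjusted *p* = 0.0487), since both were further below WT at 0 h than at 3 h. In *COL28A1* (-0.73), *TTR* (-0.86), *POSTN* (-0.87), *SLC13A3* (-0.75), *PKIB* (-0.81) and *CCDC144NL-AS1* (-1.90), which were higher in A5-KO at both times, the gap was narrower at 3 h. It widened upwards in *MIR3648-1* (3.09) and *NEAT1* (1.46). With 2 libraries a group, no single library could be tested as an outlier.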

How the results depend on the processing

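Against 2234 genes lower in A5-KO at 3 h, a minimum of 10 CPM gave 1280, no filter on low values 985, a pseudocount of 5 CPM 1446 and quantile normalization 1173. Leaving out single libraries gave 1283 to 2661, the lowest without A5-KO replicate 2. Against 144 higher genes, DESeq2 gave 358, TMM scaling 335, edgeR 356, a minimum of 10 CPM 76, median-of-ratios scaling 352, no filter 55, a pseudocount of 5 CPM 58, quantile normalization 679 and no fold limit 586, and leaving out single libraries 67 to 327. For the interaction, 2149 lower genes became 1357 with a minimum of 10 CPM, 1036 with no filter, 1007 after quantile normalization and 1108 to 2523 without single libraries, with 1108, 1145 and 1321 without WT 0 h replicate 2, A5-KO 0 h replicate 1 and A5-KO 3 h replicate 2. The 103 higher ones became 337 with DESeq2, 308 with edgeR, 293 with median-of-ratios scaling, 49 with no filter, 438 after quantile normalization, 292 with no fold limit, 196 with an unadjusted *p* and 31 to 221 without single libraries. The lowest of these, 31, 36 and 57, came without WT 0 h replicate 2, A5-KO 0 h replicate 1 and A5-KO 3 h replicate 2, and the highest, 221 and 161, without WT 3 h replicate 1 and A5-KO 0 h replicate 2. The causes were not tested. Blocking on the replicate number gave 2184 lower and 133 higher at 3 h and 2139 and 106 for the interaction. The labels do not say that a number marks a shared culture, and same-numbered libraries did not deviate together at 3 h (r = -0.01 across genes).

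Of 109 called genes among the 164 examined for the text, 79 kept their call under every alternative run and 30 lost it under at least 1, 25 of them with no filter and 10 after quantile normalization. None changed direction, and 5 genes not called (*SRSF3*, *FASN*, *KRT19*, *COL2A1* and *FN1*) were called the same way under at least 1. Each group had 2 libraries, and at the lowest depth of 30516384 reads a gene at 1 CPM rests on few reads.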
